A study of Mus musculus with 4 samples.

Results

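Interferon-stimulated genes are the genes that cells switch on in response to interferons, and 45 of them were followed in a mouse large pre-B cell line. They were chosen by gene symbol, and 44 of the 45 symbols stood among the 23420 rows of the count files. Of these, 41 passed the filter on low counts that left 12610 genes for testing. The line lacks both copies of the transcription factor genes Irf4 and Irf8, per its labels, and this holds for all libraries. It was kept in interleukin 7 (10 ng/ml) on OP9 cells, a stromal feeder layer, and infected with a retrovirus that carries a short hairpin RNA and a green fluorescent reporter. In the shMyb group (n = 2) the hairpin was aimed at Myb, and in the shLuc group (n = 2) at luciferase, a target that mouse cells do not have. Each library came from a set of 12 wells, and sorted fluorescent cells were collected after 72 hours. Both groups are a single line, so p-values rest only on the spread between the 2 transductions of each kind.

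Type I interferons bind the receptor chains Ifnar1 and Ifnar2, and the kinases Jak1 and Tyk2 then activate transcription factors of the STAT family, Stat2 among them. A complex that holds Stat2 and Irf9 binds the interferon-stimulated response element in promoters. The products sense foreign RNA or DNA, degrade or mask RNA, tag proteins with the ubiquitin-like modifier Isg15, or stop viruses at membranes. Irf4 and Irf8, absent here, are themselves interferon regulatory factors that can bind variants of the same element.

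Total counts were 38318335 and 36573743 in the shMyb libraries and 40701550 and 44682954 in the shLuc libraries. Levels are given as CPM, counts scaled by TMM to a common library size. At these depths a count of 0 leaves room for a level of up to 0.0688 to 0.0799 CPM (3 counts, for counting error only). The B cell marker Cd79a was abundant, at 1057 and 1037 CPM in shMyb and 889 and 907 CPM in shLuc. It does not stand for the direction of its list. Of 10 B-lineage markers 5 were called higher in shMyb and 4 lower, with log2 fold changes from -0.89 to 0.29. Of all tested genes 30.6% were called higher and 31.7% lower. Myb itself was not lower where its hairpin was used, at 617 and 639 CPM in shMyb against 616 and 600 CPM in shLuc (log2 fold change 0.046, SE 0.037, edgeR adjusted p = 0.283). It was called higher with library totals (0.11, edgeR adjusted p = 0.0109) and with the trend correction (0.17, edgeR adjusted p = 2.3e-04). Each direction below is therefore a difference between libraries with these labels. In bulk RNA, fewer cells of a type and less RNA per cell cannot be told apart.

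Of the 41 tested members, 18 were lower in shMyb, 10 were higher and 13 did not pass the test (edgeR quasi-likelihood, adjusted p below 0.05 over all tested genes). Among all tested genes 62.2% were called, 31.7% lower and 30.6% higher, while of the members 68.3% were called, 43.9% lower and 24.4% higher. Lower by at least 2-fold were 4 members, Ifi44, Lgals3bp, Ifih1 and Oasl1, where 2.36% of all tested genes were, and higher by at least 2-fold was 1, Gbp3, where 8.1% were. The groups did not overlap in 33 of the 41, and in 82.1% of all tested genes. The members' median log2 fold change was -6e-05 and that of all tested genes 0.0048; the members' median is the value of Mx2 alone. With libraries scaled by their totals alone, 16 members were called higher and 15 lower, and of all called genes 60.1% were then higher, against 49.1% with TMM. When the trend of fold change with expression level was removed, 12 members were called higher and 18 lower, and the median was -0.21 for the members and -0.0050 for all genes. Without shLuc replicate 1 the median was -0.15 for the members and -0.0067 for all genes. DESeq2 was run with no low-count filter, on 44 members and 16832 genes, and gave medians of -0.075 and 0.043. On these same larger sets edgeR gave -0.08 and 0.038, so the DESeq2 medians do not compare directly with those of the 41.

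**Figure D1:**
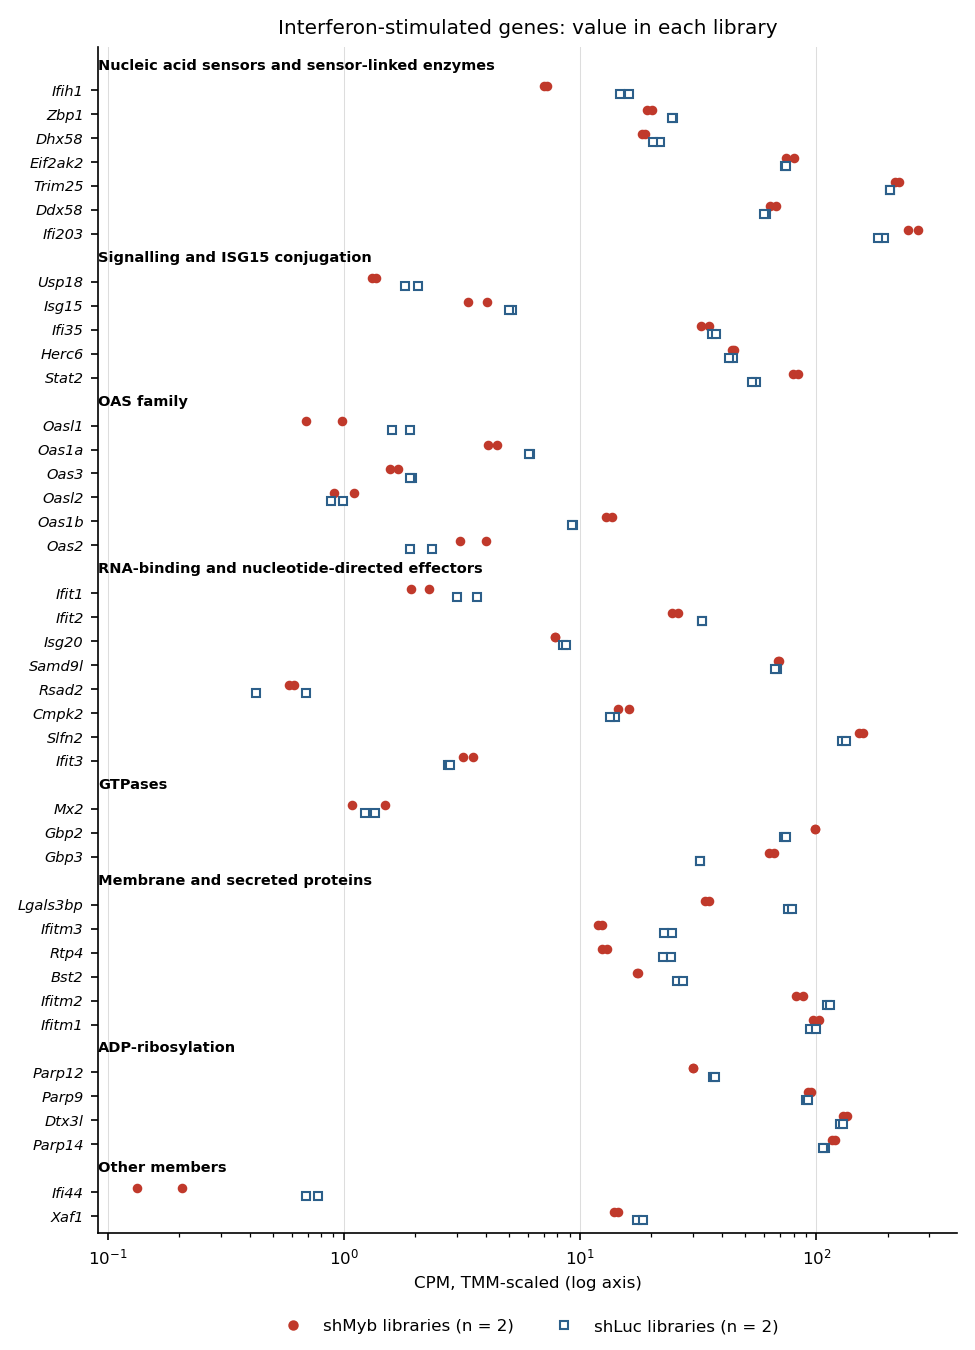
CPM of the 41 tested members in each library on a log axis, grouped by role, with the 2 shMyb libraries as filled circles above the 2 shLuc libraries as open squares. Lgals3bp, Ifitm3, Rtp4 and Bst2 sit to the left in shMyb, Gbp3, Gbp2 and Stat2 to the right, and the groups do not overlap in 33 members.

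**Figure D2:**
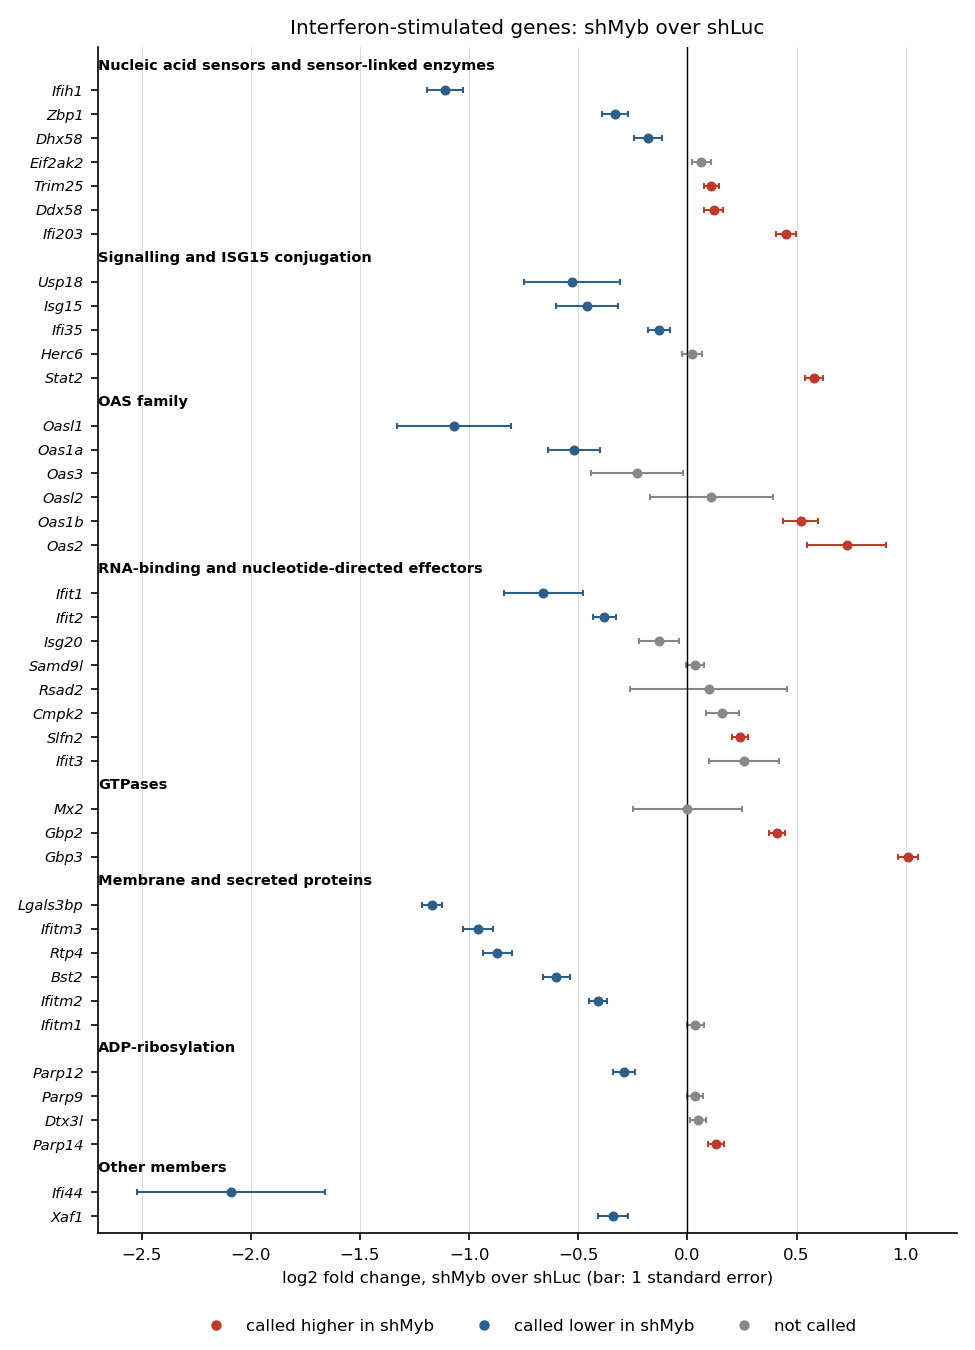
Log2 fold change of each tested member, shMyb over shLuc, with 1 standard error, coloured by the call. Values run from -2.09 (Ifi44) to 1.01 (Gbp3), with calls in both directions within most roles. Membrane and secreted proteins and the other members (Ifi44 and Xaf1) have only lower calls, and GTPases only higher calls.

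The members' levels ran over more than 3 orders of magnitude per length of exon. In CPM per kilobase of exon, Ifitm2 was highest with 130 in shMyb and 172 in shLuc. It was followed by Slfn2 with 93.0 in shMyb and 78.6 in shLuc and by Ifitm1 with 90.7 in shMyb and 88.4 in shLuc, which changed places between the groups. Trim25, Gbp2 and Ifi203 came next in shMyb, at 38.2 to 39.1, while in shLuc Trim25 (35.5) was followed by Ifitm3 (34.7). At the low end stood Rsad2, with 0.139 CPM per kilobase in shMyb and 0.128 in shLuc, and Ifi44, with 0.0276 in shMyb and 0.119 in shLuc. The scarce members were Isg15, Usp18, Oas1a, Oas2, Oas3, Oasl1, Oasl2, Ifit1, Ifit3, Rsad2, Isg20, Mx2 and Ifi44, the 13 tested members with a mean under 10 CPM. Of these 13, 6 were lower and 1 was higher, and among all 3965 tested genes under 10 CPM 14.2% were lower and 37.4% higher. Of the 14 members from 10 to 50 CPM, 10 were lower and 2 higher, where 33.2% of the genes in that range were lower and 29.0% higher. Of the 14 members above 50 CPM, 2 were lower and 7 higher, where 45.1% of such genes were lower and 26.1% higher. The share called higher was largest in the top range for the members and in the bottom range for all genes, a description that was not tested.

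**Figure D3:**
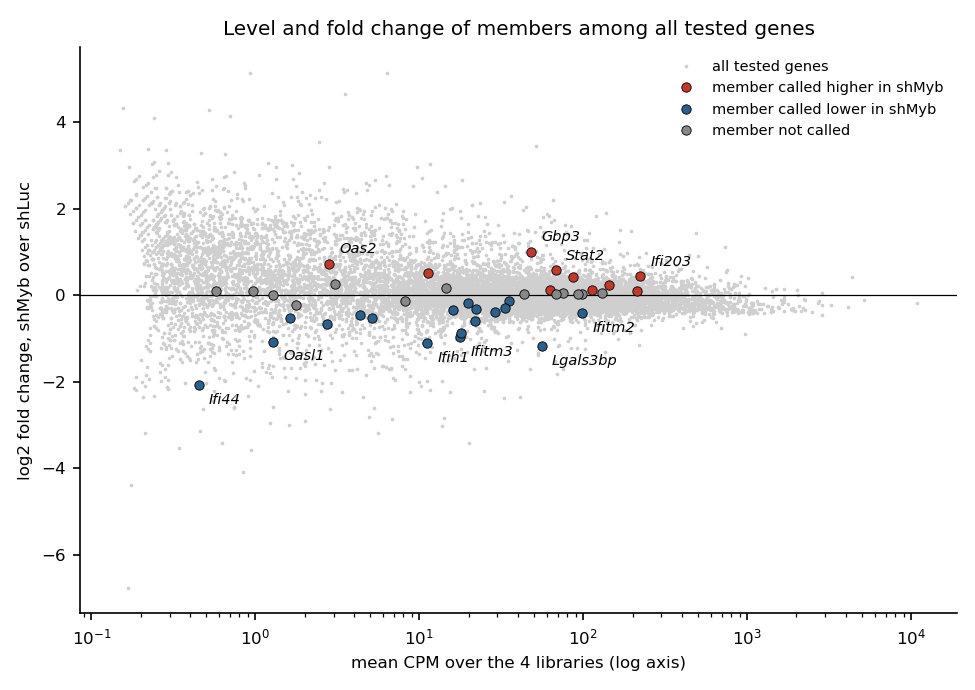
Mean CPM over the 4 libraries (log axis) against log2 fold change, shMyb over shLuc, for all 12610 tested genes in grey and the 41 members coloured by call. Members between 10 and 50 CPM lie mostly below 0 (10 of 14 called lower), and those above 50 CPM mostly at or above it (7 of 14 called higher).

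The promoters are shown before the single genes, because the response element that the complex with Stat2 and Irf9 binds lies there. Binding itself was not measured. RefSeq promoter windows (GRCm38.p6, the assembly also called mm10, 250 bases before to 50 after a start site) were on hand for 33 of the 45 members. The core of the response element was searched on both strands as 2 copies of GAAA with any 2 bases between them, overlapping matches counted. It stood in 17 of the 33 members, and in 1079 of 27025 genes (3.99%) or 3.44% of 32851 windows. Among members with a window it was in 7 of the 14 called lower, 5 of the 7 called higher, 4 of the 11 not called and 1 of 1 not tested, so genes with and without it moved both ways. With 1 or 2 bases allowed between the copies it was in 20 of 33 members, 10 of them lower and 5 higher, and in 7.27% of genes. Printed below in lower case, 5′ to 3′ on the gene's strand, are 6 windows with the core in capitals, the 3 members that fell most and the 3 that rose most among those with a match and at least 1 CPM in the higher group. Lgals3bp and Oasl1 follow, the members with at least 1 CPM in the higher group that fell most among those with no match. Ifi44, which fell more but lies under 1 CPM in both groups, had no match either.
Ifih1 (chr2:62646206-62646505, minus strand): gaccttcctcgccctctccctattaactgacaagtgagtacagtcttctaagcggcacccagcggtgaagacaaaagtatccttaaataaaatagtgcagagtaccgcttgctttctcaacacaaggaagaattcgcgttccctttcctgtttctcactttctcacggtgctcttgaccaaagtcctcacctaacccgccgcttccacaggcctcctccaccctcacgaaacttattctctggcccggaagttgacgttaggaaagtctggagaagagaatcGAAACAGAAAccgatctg
Ifitm3 (chr7:141010695-141010994, minus strand): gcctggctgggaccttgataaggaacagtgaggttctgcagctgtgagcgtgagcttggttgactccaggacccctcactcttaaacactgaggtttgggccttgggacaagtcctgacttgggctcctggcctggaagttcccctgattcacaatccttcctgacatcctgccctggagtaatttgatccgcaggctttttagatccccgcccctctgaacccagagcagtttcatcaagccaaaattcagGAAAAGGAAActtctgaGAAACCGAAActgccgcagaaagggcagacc
Ifit1 (chr19:34640639-34640938, plus strand): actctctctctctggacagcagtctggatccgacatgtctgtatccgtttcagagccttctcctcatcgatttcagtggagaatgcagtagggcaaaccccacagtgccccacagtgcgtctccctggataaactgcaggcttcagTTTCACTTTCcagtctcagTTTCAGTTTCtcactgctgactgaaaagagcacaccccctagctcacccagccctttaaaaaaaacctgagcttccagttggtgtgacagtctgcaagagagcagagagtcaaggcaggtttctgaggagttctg
Gbp3 (chr3:142559794-142560093, plus strand): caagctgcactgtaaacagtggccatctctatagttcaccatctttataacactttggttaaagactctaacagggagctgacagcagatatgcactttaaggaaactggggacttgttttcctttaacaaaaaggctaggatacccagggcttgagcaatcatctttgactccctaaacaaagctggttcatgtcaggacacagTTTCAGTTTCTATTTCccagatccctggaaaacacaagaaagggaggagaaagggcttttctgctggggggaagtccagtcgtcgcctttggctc
Stat2 (chr10:128270248-128270547, plus strand): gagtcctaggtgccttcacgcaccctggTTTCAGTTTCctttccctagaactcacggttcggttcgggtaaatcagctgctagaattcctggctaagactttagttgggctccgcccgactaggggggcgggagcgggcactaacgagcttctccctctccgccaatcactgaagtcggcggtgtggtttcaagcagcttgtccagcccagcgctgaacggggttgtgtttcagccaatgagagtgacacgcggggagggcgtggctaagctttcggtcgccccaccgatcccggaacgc
Ifi203 (chr1:173942443-173942742, minus strand): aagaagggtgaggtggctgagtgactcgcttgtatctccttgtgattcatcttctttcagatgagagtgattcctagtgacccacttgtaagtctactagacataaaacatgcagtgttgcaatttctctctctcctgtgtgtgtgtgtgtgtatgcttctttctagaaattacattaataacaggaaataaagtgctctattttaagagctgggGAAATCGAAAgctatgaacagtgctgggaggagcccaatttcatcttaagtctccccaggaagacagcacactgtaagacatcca
Lgals3bp (chr11:118401910-118402209, minus strand): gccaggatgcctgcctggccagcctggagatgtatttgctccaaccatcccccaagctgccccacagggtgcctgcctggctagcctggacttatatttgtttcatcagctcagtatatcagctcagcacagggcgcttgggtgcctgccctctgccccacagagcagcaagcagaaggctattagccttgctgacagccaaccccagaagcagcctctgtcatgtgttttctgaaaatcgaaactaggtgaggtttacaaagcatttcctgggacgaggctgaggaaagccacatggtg
Oasl1 (chr5:114922990-114923289, plus strand): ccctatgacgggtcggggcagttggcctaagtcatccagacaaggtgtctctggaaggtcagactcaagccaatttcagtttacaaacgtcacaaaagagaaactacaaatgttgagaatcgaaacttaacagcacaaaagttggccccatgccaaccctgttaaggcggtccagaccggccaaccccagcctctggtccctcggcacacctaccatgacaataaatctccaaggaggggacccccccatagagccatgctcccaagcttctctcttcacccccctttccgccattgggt
In Ifih1 the match lay 32 to 41 bases after the start site and in Ifitm3 both lay after it, whereas in Stat2 it ran from base -222 to base -213, counted from the start site. The matches of Ifit1, Gbp3 and Stat2 are read on the opposite strand, and those of Gbp3 overlap. Isg15, not printed, held 3 overlapping matches between bases -78 and -57.

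**Figure D4:**
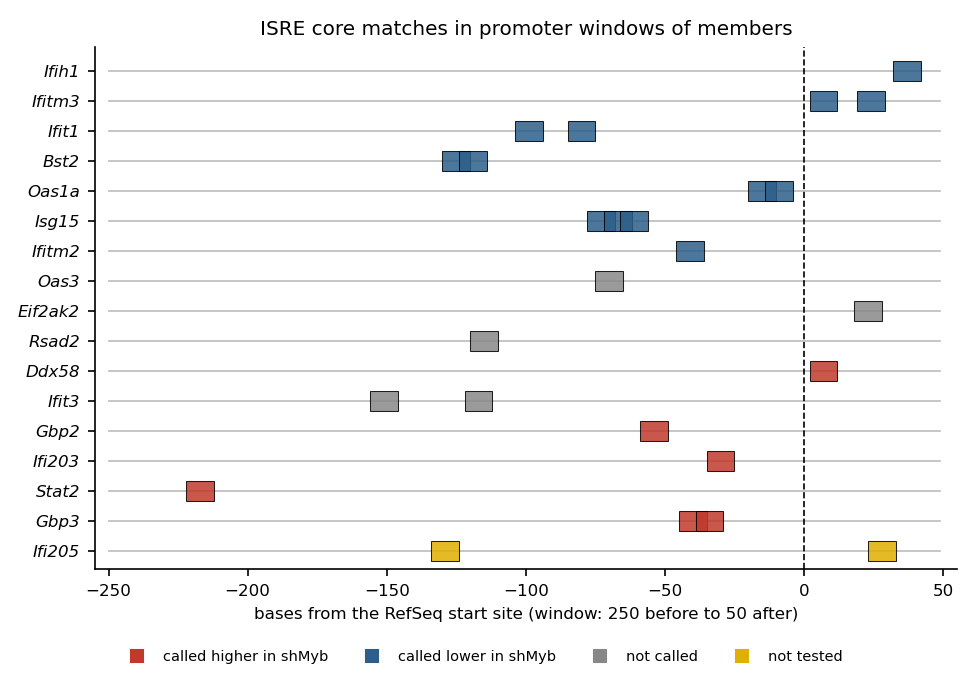
Position of each match to the response element core in the windows of the 17 members that hold one, in bases from the RefSeq start site (dashed line), coloured by the call and ordered with the largest fall in shMyb at the top. Both called directions occur with matches close to the start, as in Oas1a (lower) and Gbp3 (higher).

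Genes whose products act at membranes or outside the cell were the role with the most members called lower. Of 6 tested, 5 were lower and none higher, where 31.7% of all tested genes were lower and 30.6% higher. The median log2 fold change of the 6 was -0.74. With library totals the same 5 were lower and Ifitm1 was called higher (0.10). Lgals3bp (chromosome 11, 118392751 to 118402092, minus strand), a secreted glycoprotein, was at 34.9 and 33.7 CPM in the shMyb libraries, against 75.6 and 78.8 CPM in the shLuc libraries. This was the member with the smallest p-value, a 2.25-fold lower level in shMyb (log2 fold change -1.17, SE 0.045, edgeR adjusted p = 4.4e-17). Rtp4, a chaperone that helps receptors reach the surface, was at 13.0 and 12.4 CPM in shMyb against 22.4 and 24.2 CPM in shLuc (log2 fold change -0.87, SE 0.068, edgeR adjusted p = 5.1e-11). Bst2, or tetherin, which holds budding viruses at the cell surface, was at 17.5 and 17.4 CPM in shMyb against 25.7 and 27.2 CPM in shLuc (log2 fold change -0.60, SE 0.061, edgeR adjusted p = 6.5e-09). In all 3 genes both shMyb libraries lay below both shLuc libraries.

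The Ifitm genes, whose products block fusion of enveloped viruses with cell membranes, are neighbours on chromosome 7, and 2 of the 3 fell. Ifitm3 (141009586 to 141010770, minus strand) was at 11.9 and 12.3 CPM in shMyb against 24.4 and 22.7 CPM in shLuc (log2 fold change -0.96, SE 0.068, edgeR adjusted p = 8.9e-12). Ifitm2 (140954837 to 140955987, minus strand) was at 87.4 and 82.3 CPM in shMyb against 111 and 114 CPM in shLuc (log2 fold change -0.41, SE 0.040, edgeR adjusted p = 3.6e-09). Ifitm1 (140967221 to 140969825, plus strand), which lies between them, was at 102 and 97.0 CPM in shMyb against 94.1 and 99.4 CPM in shLuc, and its groups overlapped (0.037, SE 0.040, edgeR adjusted p = 0.429). Whether the 3 fold changes differ from each other was not tested. Of Ifitm2 exon length 40.9% overlaps the gene model Gm45717 on the same strand, and 48.5% of its 50-base words also occur in transcripts of other genes, so its level is uncertain. For Ifitm3 the share of such words is 10.0%, for Rtp4 11.6%, and for Lgals3bp and Bst2 it is 0. Of Rtp4 exon length 13.9% overlaps the gene model Gm45338 on the same strand.

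Stromal cells express several of these membrane genes, so the 15 stromal markers were read beside them. Their summed level was 117 and 121 CPM in shMyb and 88.8 and 70.3 CPM in shLuc. Much of the shMyb sum was Thy1 (62.5 and 58.7 CPM in shMyb, 12.9 and 11.7 CPM in shLuc), which lymphoid cells can express too. The higher sum in shMyb therefore does not stand for the list. Of 13 tested stromal markers 3 were higher and 3 lower, where 30.6% of all tested genes were higher and 31.7% lower. The higher ones were Thy1 (log2 fold change 2.30), Postn (1.01) and Sparc (0.42). The lower ones were Cxcl12 (-1.80), Fn1 (-1.52) and Col6a1 (-0.49). The collagen gene Col1a1 was at 12.7 and 14.8 CPM in shMyb and 15.0 and 11.2 CPM in shLuc, Lum had 2 counts in 1 shMyb library and 0 in the other libraries, and Fn1 was at 6.95 and 7.40 CPM in shMyb and 22.7 and 18.6 CPM in shLuc. Myeloid markers summed to 39.3 and 38.6 CPM in shMyb and 17.5 and 16.4 CPM in shLuc. Most of this sum was Ctss (29.2 and 26.9 CPM in shMyb, 11.3 and 11.2 CPM in shLuc). Of 8 tested myeloid markers 6 were higher and none lower, where 30.6% of all tested genes were higher. Apart from Ctss these markers lay under 10 CPM, a range in which 37.4% of tested genes were higher. By at least 2-fold 4 were higher: Ctss (log2 fold change 1.32) and, at low levels, Itgam (1.51), Cd14 (1.73) and Cebpa (1.76). A rise of that size was called in 8.1% of all tested genes, and in 880 of the 3965 under 10 CPM. Elane was at 0 in all libraries and Mpo had 1 count in 1 library of each group. The 8 plasmacytoid dendritic cell markers summed to 188 and 193 CPM in shMyb and 182 and 173 CPM in shLuc, nearly all of it Tcf4, which B cells express. All 4 tested markers of this list were higher, 3 of them by at least 2-fold at levels under 1.2 CPM in every library. The shares just given for genes under 10 CPM apply to those 3. Of the markers not tested, Runx2 had 4 and 6 counts in shMyb against 10 and 10 in shLuc. Cox6a2 had 10 and 6 counts in shMyb against 2 and 4 in shLuc, Ccr9 had 1 count in 1 shMyb library, and Clec4b2 was at 0. The part of such cells in the members' differences was not tested.

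Among the sensors of nucleic acids and their helpers, 3 of 7 tested members were lower and 3 higher. Over all tested genes 31.7% were lower and 30.6% higher. Ifih1 (chromosome 2, 62595798 to 62646255, minus strand) encodes MDA5, a helicase that detects long double-stranded RNA in the cytosol. It was at 7.01 and 7.24 CPM in shMyb, against 16.0 and 14.7 CPM in shLuc. Both shMyb values lay below both shLuc values, and the level was 2.16-fold lower in shMyb (log2 fold change -1.11, SE 0.084, edgeR adjusted p = 3.2e-11). Zbp1, a sensor of left-handed nucleic acids that can trigger cell death, was at 20.2 and 19.1 CPM in shMyb against 24.7 and 24.5 CPM in shLuc (log2 fold change -0.33, SE 0.060, edgeR adjusted p = 4.5e-05). Dhx58, which encodes the helicase LGP2, was at 18.8 and 18.3 CPM in shMyb against 21.8 and 20.3 CPM in shLuc, a small difference (-0.18, edgeR adjusted p = 0.0153) whose call ended without shMyb replicate 2 (-0.17), without shLuc replicate 1 (-0.15), with library totals (-0.12) and with DESeq2 (-0.19).

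The gene of the other RNA-sensing helicase was not lower. Ddx58, which encodes RIG-I, was at 63.8 and 67.4 CPM in shMyb against 61.1 and 59.9 CPM in shLuc (0.12, SE 0.043, edgeR adjusted p = 0.0208), and Trim25, a ubiquitin ligase linked to RIG-I, at 224 and 215 CPM in shMyb against 204 and 204 CPM in shLuc (0.11, SE 0.036, edgeR adjusted p = 0.0143). Both were called higher by a narrow margin. The Ddx58 call ended without shMyb replicate 2 (0.076), shLuc replicate 1 (0.11) or shLuc replicate 2 (0.093), the Trim25 call without shMyb replicate 1 (0.071), shLuc replicate 1 (0.082) or shLuc replicate 2 (0.097), and both ended with DESeq2. The Trim25 call also ended with the replicate block (0.11). Eif2ak2, the kinase PKR that halts translation on double-stranded RNA, was at 74.3 and 80.6 CPM in shMyb and 73.7 and 74.4 CPM in shLuc, with overlapping groups (0.064, edgeR adjusted p = 0.194). It was called higher without shMyb replicate 1 (0.12), with library totals (0.13) and with the trend correction (0.11).

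Ifi203 was the clear riser of this role. It belongs to a cluster of mouse genes on chromosome 1 for nuclear proteins of the PYHIN family, some of which bind DNA. Its level was 243 and 269 CPM in shMyb against 193 and 182 CPM in shLuc (log2 fold change 0.45, SE 0.046, edgeR adjusted p = 5.7e-07). Its relatives Ifi204 and Ifi205 were almost silent, with 1 and 5 counts of Ifi204 in shMyb against 2 and 7 in shLuc, and 0 and 0 counts of Ifi205 in shMyb against 0 and 1 in shLuc. Neither was tested. Of Ifi203 words of 50 bases 12.2% also occur in other genes, chiefly the neighbour Mndal, which was itself higher (0.32, edgeR adjusted p = 4.0e-07).

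In the signalling and Isg15 group, Stat2 rose while Isg15 and Usp18 fell. Stat2 (chromosome 10, 128270559 to 128292849, plus strand) was at 79.3 and 83.5 CPM in shMyb against 55.2 and 53.5 CPM in shLuc, a 1.5-fold higher level (log2 fold change 0.58, SE 0.043, edgeR adjusted p = 1.6e-11). Its partner Irf9 was at 39.9 and 39.5 CPM in shMyb against 44.2 and 43.7 CPM in shLuc (-0.15, SE 0.046, edgeR adjusted p = 0.00801), no longer called with library totals (-0.084) or DESeq2 (-0.16).

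Isg15, the ubiquitin-like modifier, was at 3.34 and 4.02 CPM in shMyb against 5.15 and 4.98 CPM in shLuc (log2 fold change -0.46, SE 0.14, edgeR adjusted p = 0.00488). Usp18, the protease that removes it and also damps the receptor, was at 1.31 and 1.36 CPM in shMyb against 2.05 and 1.81 CPM in shLuc (-0.53, SE 0.22, edgeR adjusted p = 0.0409). Both stood on few reads: Usp18 had 51 counts in each shMyb library and 82 and 79 in shLuc. The Isg15 call ended without shMyb replicate 1 (-0.34) and with DESeq2, and the Usp18 call without shMyb replicate 1 (-0.51), shMyb replicate 2 (-0.56) or shLuc replicate 1 (-0.47), with library totals, DESeq2 and the replicate block. Herc6, the main Isg15 ligase of the mouse, was at 43.7 and 44.6 CPM in shMyb and 44.2 and 42.8 CPM in shLuc, with overlapping groups (0.021, SE 0.046, edgeR adjusted p = 0.708). Ifi35, a partner of Nmi, was called lower by -0.13 (edgeR adjusted p = 0.0284), which ended with library totals (-0.071), the trend correction (-0.11) and DESeq2 (-0.14), without shMyb replicate 2 (-0.082) and without shLuc replicate 2 (-0.12). Of its exon length 16.8% overlaps a gene model on the opposite strand, and the strand setting of the counting is not given in the sources used here.

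The OAS family makes oligoadenylates, messengers of the antiviral response, on double-stranded RNA, and its members on chromosome 5 split. Oas1a was at 4.05 and 4.42 CPM in shMyb against 6.13 and 6.06 CPM in shLuc (log2 fold change -0.52, SE 0.12, edgeR adjusted p = 6.1e-04). Its neighbour Oas1b, annotated as a polymorphic pseudogene, went the other way with 12.9 and 13.6 CPM in shMyb against 9.33 and 9.25 CPM in shLuc (0.52, SE 0.080, edgeR adjusted p = 4.9e-06). Oas2 was likewise higher, at 3.10 and 3.97 CPM in shMyb against 2.35 and 1.90 CPM in shLuc (0.73, SE 0.18, edgeR adjusted p = 0.00121). None of these 3 pairs of values overlapped between the groups. Oasl1, an OAS-like gene that restrains translation of Irf7 in the mouse, was at 0.975 and 0.692 CPM in shMyb against 1.60 and 1.90 CPM in shLuc (-1.07, SE 0.26, edgeR adjusted p = 0.00106). Oas3 (-0.23, SE 0.21) and Oasl2 (0.11, SE 0.28) did not pass, on 59 to 83 and 34 to 43 counts per library, and Oas3 was called lower with the trend correction (-0.52). Of the 50-base words of Oas1a 57.6% occur in other genes, chiefly Oas1g, so its level is uncertain.

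Effectors that bind RNA or act on nucleotides were mostly not called, with 2 lower, 1 higher and 5 not passing of 8 tested. Over all tested genes 31.7% were lower and 30.6% higher. Ifit2 was at 25.8 and 24.5 CPM in shMyb against 32.7 and 32.7 CPM in shLuc (log2 fold change -0.38, SE 0.054, edgeR adjusted p = 1.4e-06). Ifit1, which binds RNA that lacks cap methylation, was at 1.92 and 2.29 CPM in shMyb against 3 and 3.65 CPM in shLuc (-0.66, SE 0.18, edgeR adjusted p = 0.00272). Ifit3, their neighbour on chromosome 19, was at 3.18 and 3.51 CPM in shMyb against 2.75 and 2.82 CPM in shLuc and did not pass (0.26, SE 0.16, edgeR adjusted p = 0.162). For Ifit3 the level is uncertain, since 51.2% of its 50-base words occur in other genes, chiefly Ifit3b.

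The riser of this role was Slfn2, a Schlafen gene that keeps mouse T cells quiescent, at 157 and 152 CPM in shMyb against 128 and 133 CPM in shLuc (log2 fold change 0.24, SE 0.038, edgeR adjusted p = 4.9e-06). Cmpk2, a mitochondrial nucleotide kinase gene next to Rsad2 on chromosome 12, was at 14.5 and 16.1 CPM in shMyb and 14 and 13.3 CPM in shLuc and narrowly did not pass (0.16, SE 0.074, edgeR adjusted p = 0.059). It was called higher without shMyb replicate 1 (0.23), with library totals (0.23), with the 1 CPM filter (0.17) and with the crossed block (0.16). The exonuclease gene Isg20 (-0.13, SE 0.092), the translation repressor gene Samd9l (0.036, SE 0.041, called higher with library totals at 0.098) and Rsad2 (0.098, SE 0.36), which encodes viperin, did not pass. Rsad2 rested on 17 to 30 counts per library, and its interval from -0.60 to 0.80 spans changes in both directions.

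Gbp3 and Gbp2, which encode guanylate-binding proteins, large GTPases that attack the vacuoles and membranes of intracellular microbes, both rose. Gbp3 (chromosome 3, 142560026 to 142573209, plus strand) was at 62.8 and 66.1 CPM in shMyb against 32.0 and 32.2 CPM in shLuc, 2.01-fold higher (log2 fold change 1.01, SE 0.046, edgeR adjusted p = 1.6e-15). Gbp2, its neighbour, was at 98.4 and 98.2 CPM in shMyb against 73.2 and 74.5 CPM in shLuc (0.41, SE 0.038, edgeR adjusted p = 1.4e-09). Both genes had non-overlapping groups and were called higher in all 16 alternative analyses. Mx2 was at 1.08 and 1.49 CPM in shMyb and 1.35 and 1.22 CPM in shLuc (-6e-05, SE 0.25, edgeR adjusted p = 1.0), and Mx1 had 0 and 1 counts in shMyb and 0 and 0 in shLuc. The annotation gives Mx2 as a polymorphic pseudogene.

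The genes grouped under ADP-ribosylation moved little, with 1 lower, 1 higher and 2 not called, where 31.7% of all tested genes were lower and 30.6% higher. Parp9 and Dtx3l encode partners in one ubiquitin ligase complex and lie head to head on chromosome 16. Parp9 was at 95.2 and 92.3 CPM in shMyb and 90.5 and 92.4 CPM in shLuc (0.035, SE 0.038, edgeR adjusted p = 0.431), and Dtx3l at 135 and 129 CPM in shMyb and 126 and 129 CPM in shLuc (0.049, SE 0.038, edgeR adjusted p = 0.269). The intervals, -0.040 to 0.11 for Parp9 and -0.025 to 0.12 for Dtx3l, leave room for a small rise, which was called in both with library totals (0.098 and 0.11) and in Dtx3l with the trend correction (0.094). Exons of the pair overlap on opposite strands over 9.40% of Parp9 and 8.00% of Dtx3l. Parp12, which blocks viral RNA translation, was at 29.9 and 30.1 CPM in shMyb against 36.3 and 37.0 CPM in shLuc (-0.29, SE 0.050, edgeR adjusted p = 2.2e-05). Parp14 was called higher (0.13, edgeR adjusted p = 0.00482), a call that ended without shMyb replicate 2 (0.10), without shLuc replicate 2 (0.10) and with DESeq2.

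Ifi44 and Xaf1 were both lower. Ifi44 had 8 and 5 counts in shMyb against 31 and 30 in shLuc, the member with the largest fold change (log2 fold change -2.09, SE 0.43, edgeR adjusted p = 2.0e-04) and one of the lowest levels. Xaf1, whose product opposes the apoptosis inhibitor XIAP, was at 13.9 and 14.4 CPM in shMyb against 17.4 and 18.4 CPM in shLuc (-0.34, SE 0.069, edgeR adjusted p = 1.3e-04). Ifi27 had no row under that symbol and was not analysed here.

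The genes upstream of the members were then read from 6 lists of interferon signalling. The interferon genes of the list were silent or nearly so: of 12 ligand genes 10 had 0 counts in all libraries, and Ifnz and Ifng had 1 count in shMyb and 1 in shLuc each. Interferon genes outside these 12 were not read. Of 9 receptor and kinase genes 5 rose and 3 fell, where 30.6% of all tested genes were higher and 31.7% lower. Both chains of the type I receptor were lower, Ifnar1 with 124 and 121 CPM in shMyb against 148 and 154 CPM in shLuc (log2 fold change -0.30, SE 0.037, edgeR adjusted p = 1.4e-07) and Ifnar2 with 62.8 and 60.1 CPM in shMyb against 71.9 and 70.5 CPM in shLuc (-0.21, SE 0.042, edgeR adjusted p = 1.2e-04). Both chains of the interferon gamma receptor were higher, Ifngr1 with 96.3 and 92.9 CPM in shMyb against 58.7 and 60.4 CPM in shLuc (0.67, SE 0.040, edgeR adjusted p = 4.1e-13) and Ifngr2 by 0.27. The kinase gene Jak2 rose by 0.43. Under RLE scaling, library totals and the trend correction these 5 kept their direction and call.

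Of 9 transcription factors 4 rose and 3 fell, where 30.6% of all tested genes were higher and 31.7% lower. Bcl6, a repressor of transcription that acts in B cells, rose most (0.83, SE 0.13, edgeR adjusted p = 5.9e-06), and Irf3 and Irf2 rose by 0.21 and 0.19. Prdm1 fell by 0.50. Irf1, an interferon gamma target, was at 92.4 and 90.3 CPM in shMyb against 99.5 and 100 CPM in shLuc (-0.13, edgeR adjusted p = 0.00438), not called with library totals (-0.068). Irf7, the factor that amplifies type I interferon, was at 7.08 and 7.56 CPM in shMyb and 8.61 and 8.35 CPM in shLuc and did not pass (-0.21, SE 0.095, edgeR adjusted p = 0.0564), but was called lower with the trend correction (-0.30), no low-count filter (-0.23) and the crossed block (-0.21).

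Adaptors and further sensors of nucleic acids were mostly higher, 11 of 14 with none lower and 3 not passing, where 30.6% of all tested genes were higher. Their median was 0.43, and that of all tested genes 0.0048. Tlr9, the endosomal receptor for DNA, was at 23.0 and 22.0 CPM in shMyb against 7.88 and 8.70 CPM in shLuc (log2 fold change 1.44, SE 0.074, edgeR adjusted p = 1.6e-14). Unc93b1, which carries such receptors to endosomes, was at 328 and 322 CPM in shMyb against 201 and 203 CPM in shLuc (0.69, SE 0.036, edgeR adjusted p = 1.9e-14). Mavs, the adaptor of RIG-I and MDA5, was at 80.8 and 79.6 CPM in shMyb against 55.1 and 56.4 CPM in shLuc (0.52, SE 0.041, edgeR adjusted p = 5.8e-11). The Mavs rise thus stood beside a fall of the sensor gene Ifih1. With the trend correction 9 of 14 were called higher, with library totals 12, and none lower in either. Tested against a 1.2-fold change, 6 were higher. Myeloid markers (6 of 8 tested higher) and plasmacytoid dendritic cell markers (4 of 4) moved with this list, and their part in it was not tested.

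Among 12 genes that restrain the pathway or clear its nucleic acid triggers, 6 rose and 3 fell. Samhd1, which breaks down nucleotides for DNA synthesis, was at 96.5 and 97.2 CPM in shMyb against 29.2 and 25.1 CPM in shLuc (log2 fold change 1.84, SE 0.054, edgeR adjusted p = 1.3e-15). Ptpn6, a phosphatase of cytokine and antigen receptors, rose by 0.74 and the RNA editing gene Adar by 0.28, while Socs3, a feedback inhibitor of JAK kinases, fell by 0.36 on the log2 scale. Of 40 tested genes in a list of other interferon-inducible genes, 18 rose and 12 fell, at a median of 0.084. Helz2 (0.82), Slfn5 (1.60), Gbp7 (0.74) and Sp100 (0.78) had the smallest p-values and all rose. Slfn5 was at 20.3 and 20.4 CPM in shMyb against 6.96 and 6.45 CPM in shLuc. Over the 6 lists, 44 genes were higher (52.4%) and 21 lower (25%) of 84 tested. Of the 41 members 10 were higher (24.4%) and 18 lower (43.9%). Among all tested genes 30.6% were higher and 31.7% lower, and no test compared these counts.

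**Figure D5:**
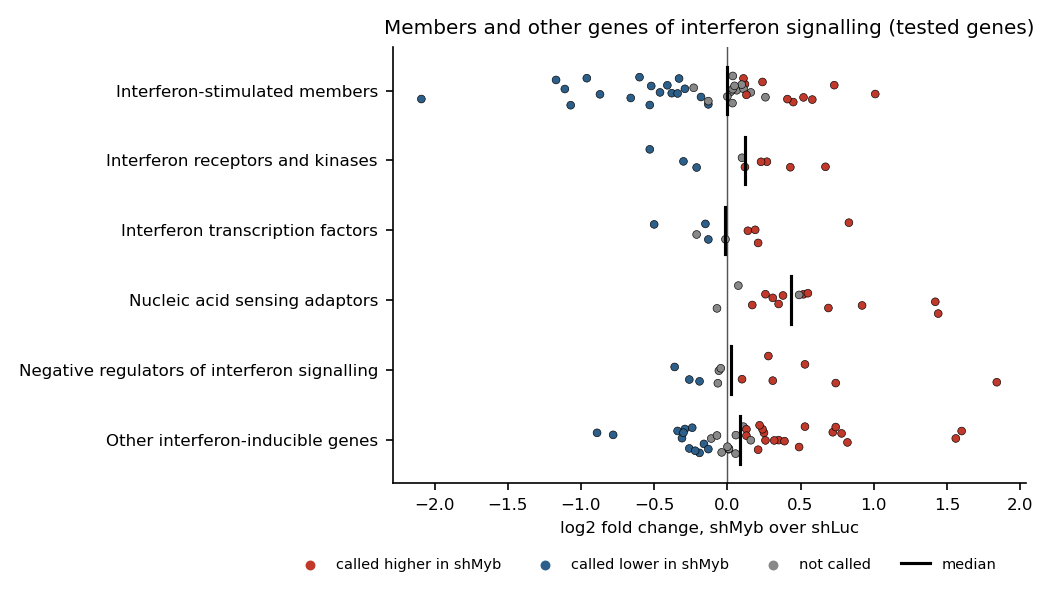
Log2 fold change, shMyb over shLuc, of each tested gene among the members and in 5 lists of interferon signalling genes (no ligand gene was tested), with the median of each as a black bar. Nucleic acid sensing adaptors lie mostly to the right of 0 (median 0.43, lowest value -0.071), whereas the members spread to both sides (median -6e-05).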

How the data were processed

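Each deposited file holds the raw read counts of 1 library, with a row per gene symbol. FastQC, STAR, HTSeq, DESeq2 and mm10 are named, with no versions or roles, per the submitters' processing notes; the sources used here give no annotation, strand setting or filter. Of 23420 rows, 27 carried a calendar date in place of a symbol and stayed in totals and tests. Counts were tested with edgeR 4.0.16 (R 4.3.3): filterByExpr with a minimum count of 10, TMM, glmQLFit with robust=TRUE, glmQLFTest, group as the only term, Benjamini-Hochberg adjustment over 12610 genes, called below 0.05. Standard errors are the log2 fold change divided by the square root of F, and 95% intervals are normal. The test was run on simulated data first. CPM use TMM-scaled totals. Positions, exon lengths and shared words are from GENCODE M21 (GRCm38), in which 21751 symbols matched by name, and promoters from RefSeq. All members are accounted for; from each pathway list up to 4 called genes with the smallest p are named where they can be reported, with Irf9, Irf7, Irf1, Ifnar1 and Ifnar2. Members and lists were chosen with earlier results of these data known. Alternatives were RLE scaling, library totals, removal of the trend with level, no filter, at least 1 CPM in 2 libraries, DESeq2 1.42.0, robust=FALSE, limma-voom (limma 3.58.1), a replicate block, each library left out, an adjusted p below 0.01, glmTreat at 1.2-fold and, chosen after seeing the data, a crossed block. Of the entries in the pathway lists, 6 had no row under the listed symbol and were not analysed here, and some genes are not reported here.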

Additional observations from a re-analysis of the deposited data

How the results depend on the processing

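Of the 28 called members, none changed sign in any of 16 alternatives, 17 kept their call in all that tested them and 21 in all but the stricter thresholds. Both counts include Ifi44, which the 1 CPM filter removed. With library totals 16 members were called higher, and the median of tested members was 0.063 (-0.21 with the trend correction, -0.052 with the 1 CPM filter, -0.15 to -0.048 with a library left out). With DESeq2 7 were higher and 14 lower. Tested against a 1.2-fold change, 6 members were higher and 11 lower, 22 pathway genes were higher and 6 lower, and 3160 of all genes were called (1893 higher, 1267 lower). Signs changed only in uncalled genes. With a library left out, Mx2 ranged from -0.25 to 0.21, Oasl2 from -0.048 to 0.24, Rsad2 from -0.22 to 0.49, Ifitm1 from -0.023 to 0.069, Parp9 from -0.0013 to 0.057, Herc6 from -0.012 to 0.031 and Ifi47 from -0.043 to 0.037. Mx2 was at 0.00082 with RLE, 0.063 with library totals and 0.012 with the 1 CPM filter, Oasl2 at -0.28 and Rsad2 at -0.38 with the trend correction, and Ifi47 at -0.0056 with no filter and -0.0011 with DESeq2. The causes were not tested. Same-numbered libraries did not deviate together (r = -0.195 over 12610 genes and -0.34 over the 8625 above 10 CPM; genes are not independent). With the replicate block 9 members were higher and 17 lower and 58.2% of tested genes were called; with the crossed block 11 and 18, and 68.1%. The Trim25 and Usp18 calls ended under the replicate block (0.11 and -0.53). With the longest transcript as length, levels moved by up to 6 places in the order. Depth limits the untested members Mx1, Ifi204 and Ifi205 and the 13 members under 10 CPM.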

Other observations

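The families below were grouped after their values were seen. The 7 guanylate-binding protein genes among the members and lists gave 6 higher and 1 lower in shMyb, and the same counts with RLE scaling, library totals and the trend correction. Among all tested genes 30.6% were higher and 31.7% lower. Gbp7 was at 363 and 386 CPM in shMyb against 224 and 225 CPM in shLuc (log2 fold change 0.74, edgeR adjusted p = 1.4e-14), and Gbp5 at 30.5 and 33.1 CPM in shMyb against 18.4 and 20.3 CPM in shLuc (0.72, edgeR adjusted p = 3.4e-10). Gbp4 rose by 0.24 and Gbp9 by 0.13, and the Gbp9 call ended with DESeq2 (0.11), without shMyb replicate 2 (0.062), without shLuc replicate 1 (0.12) and without shLuc replicate 2 (0.10). Gbp6 was at 6.93 and 7.43 CPM in shMyb against 11.5 and 13.0 CPM in shLuc (-0.78, edgeR adjusted p = 7.1e-08). The immunity-related GTPases, which act with the guanylate-binding proteins on the vacuoles of microbes, gave 4 lower and none higher of 5 (2 lower with library totals, 3 with the trend correction). Tgtp1 was at 7.93 and 6.47 CPM in shMyb against 13.0 and 13.8 CPM in shLuc (-0.89, edgeR adjusted p = 1.1e-08), and Irgm1 at 61.0 and 59.3 CPM in shMyb against 71.7 and 76.9 CPM in shLuc (-0.31, edgeR adjusted p = 1.4e-06). Igtp (-0.16) and Irgm2 (-0.13) were called narrowly, and neither was called with library totals (-0.10 and -0.071), without shMyb replicate 2 (-0.11 and -0.15) or without shLuc replicate 2 (-0.10 and -0.093), nor with DESeq2 (-0.18 and -0.15). Irgm2 was also not called without shMyb replicate 1 (-0.13), with the trend correction (-0.12), the 1 CPM filter (-0.12), robust=FALSE, limma-voom or the replicate block (-0.13 in each). Ifi47 did not pass (0.010, edgeR adjusted p = 0.869). The 2 families differ in their counts, and no test compared them.

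RefSeq lists Ifi27 with the older symbol Ifi27l1 and gives Ifi27 as an earlier symbol of Ifi27l2a, so neither row of the files was taken as the member. Both rows were lower. Ifi27l1 was at 89.9 and 95.1 CPM in shMyb against 149 and 151 CPM in shLuc (log2 fold change -0.70, SE 0.039, edgeR adjusted p = 6.1e-14), and Ifi27l2a at 21.9 and 23.7 CPM in shMyb against 43.7 and 45.3 CPM in shLuc (-0.96, SE 0.053, edgeR adjusted p = 6.6e-14).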
